A study of Mus musculus with 4 samples.

Results

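The miR-23, miR-24 and miR-27 microRNAs (miRNAs) are encoded together at 2 places in the mouse genome, the a and the b cluster, and their levels were followed here in lungs of adult and newborn mice in high oxygen or room air. The 5 assays were taken by name from the 750 miRNA assays of the series: mmu-miR-23a and mmu-miR-27a for the a cluster, mmu-miR-23b and mmu-miR-27b for the b cluster, and mmu-miR-24, whose mature sequence comes from both. The 4 libraries were made from adult mice in hyperoxia, adult mice in room air, neonatal mice in hyperoxia and neonatal mice in room air. Hyperoxia was 95% oxygen for 72 h. Adults were 2 months old and neonates were newborn at the start of exposure and 3 days old at collection, with nursing dams moved between the atmospheres each day. All groups gave right lung that had been flushed through the pulmonary artery, the labels name no strain or genetic change, and the number of animals behind each library is not in them.

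A miRNA cluster is transcribed as 1 precursor RNA from which several hairpins are cut, and each hairpin yields a guide strand, which is loaded into Argonaute to repress messenger RNAs, and a passenger strand, which is mostly lost. Bases 2 to 8 of a miRNA, the seed, pair with the target messenger RNA. The miR-23, miR-24 and miR-27 clusters are known for roles in blood vessels: miR-23 and miR-27 act in endothelial sprouting, miR-27 represses the adipogenic regulator PPARG and anti-angiogenic factors, and miR-24 acts in cell cycle exit and endothelial apoptosis.

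The a cluster spans chr8:84208518-84208921 on the plus strand (RefSeq, GRCm38.p6) and holds Mir23a, Mir27a and Mir24-2 in 404 bp. It overlaps no protein-coding gene, and Zswim4 is the nearest at 2021 bp. The b cluster spans chr13:63300484-63301275 on the plus strand and holds Mir23b, Mir27b and Mir24-1 in 792 bp, inside the aminopeptidase gene Aopep (chr13:62964893-63326096). The mature sequences are shown first because they set what each assay can tell apart, with the seed in capitals (RefSeq, GRCm38.p6, 5′ to 3′).
mmu-miR-23a-3p: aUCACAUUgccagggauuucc
mmu-miR-27a-3p: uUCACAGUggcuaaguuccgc
mmu-miR-27b-3p: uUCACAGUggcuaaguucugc
mmu-miR-24-3p: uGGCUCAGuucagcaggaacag
The miR-27 guides share the seed UCACAGU and differ at 1 of 21 bases, C19U from miR-27a to miR-27b, counted from the 5′ end. The miR-23a seed differs from it by U7G. The miR-24 seed is unrelated to both.

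The hairpins that yield miR-24 differ between the clusters while the mature strand, in capitals, is the same, so the miR-24 assay reports the sum of both loci.
Mir24-2: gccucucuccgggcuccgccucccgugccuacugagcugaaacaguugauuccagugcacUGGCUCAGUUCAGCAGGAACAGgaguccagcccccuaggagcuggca
Mir24-1: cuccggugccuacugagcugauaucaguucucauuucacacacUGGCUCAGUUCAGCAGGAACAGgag
The passenger strands tell the loci apart and are shown for that reason, again with bases 2 to 8 in capitals.
mmu-miR-27a-5p: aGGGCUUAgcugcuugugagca
mmu-miR-27b-5p: aGAGCUUAgcugauuggugaac
mmu-miR-24-2-5p: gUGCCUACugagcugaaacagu
mmu-miR-24-1-5p: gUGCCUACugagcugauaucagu
The miR-27 passengers differ at 8 of 22 bases, among them G3A in the seed, while the miR-24 passengers share their seed. In the files these strands carry the older names miR-27a*, miR-27b*, miR-24-2* and miR-24-1*, used below.

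Levels were read by quantitative PCR as the cycle at which a well crosses its threshold (Ct), with a lower Ct for more RNA. They are given as log2 levels relative to the small nucleolar RNA snoRNA202 of the same card, so that a difference of 1 between libraries is 2-fold at perfect amplification. Assays amplify with unlike efficiency, so only differences between libraries are compared, not the levels of different assays. All 5 members had a Ct of 35 or below in every library, the limit used for a measured assay. The number of measured miRNA assays was 468, 468, 507 and 477 in adult hyperoxia, adult room air, neonatal hyperoxia and neonatal room air. Every one of the 20 marker assays for erythroid cells (3), leukocytes (4), epithelium (5), striated muscle (4), endothelium (2) and smooth muscle (2) was measured in every library, with a latest Ct of 27.3, including the endothelial miR-126-3p and the epithelial miR-200 family that lung should hold.

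Of the a cluster, miR-27a had levels of -4.85 in adult hyperoxia, -4.35 in adult room air, -5.19 in neonatal hyperoxia and -4.99 in neonatal room air. Both adult libraries lay above both neonatal ones, within a range of 0.84. miR-23a, from the neighbouring hairpin, had levels of -16.68 in adult hyperoxia, -13.89 in adult room air, -19.93 in neonatal hyperoxia and -20.81 in neonatal room air. Its wells crossed at Ct 29.5, 27.3, 33.5 and 34.9 in that order of libraries, while those of miR-27a crossed between 17.7 and 19.0. miR-23a therefore spread over 6.92 log2 units, with adult room air highest, and both neonatal wells were late.

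Of the b cluster, miR-23b had levels of -6.79 in adult hyperoxia, -6.44 in adult room air, -7.69 in neonatal hyperoxia and -7.58 in neonatal room air. miR-27b had levels of -5.12 in adult hyperoxia, -4.61 in adult room air, -5.68 in neonatal hyperoxia and -5.73 in neonatal room air. Both were higher in each adult library than in each neonatal one. miR-24, the product shared by the clusters, had levels of 1.35 in adult hyperoxia, 1.76 in adult room air, 1.35 in neonatal hyperoxia and 1.00 in neonatal room air. Its Ct was the 2nd, 4th, 5th and 5th lowest of the 750 assays in those libraries, and adult hyperoxia lay only 0.003 above neonatal hyperoxia.

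**Figure D1:**
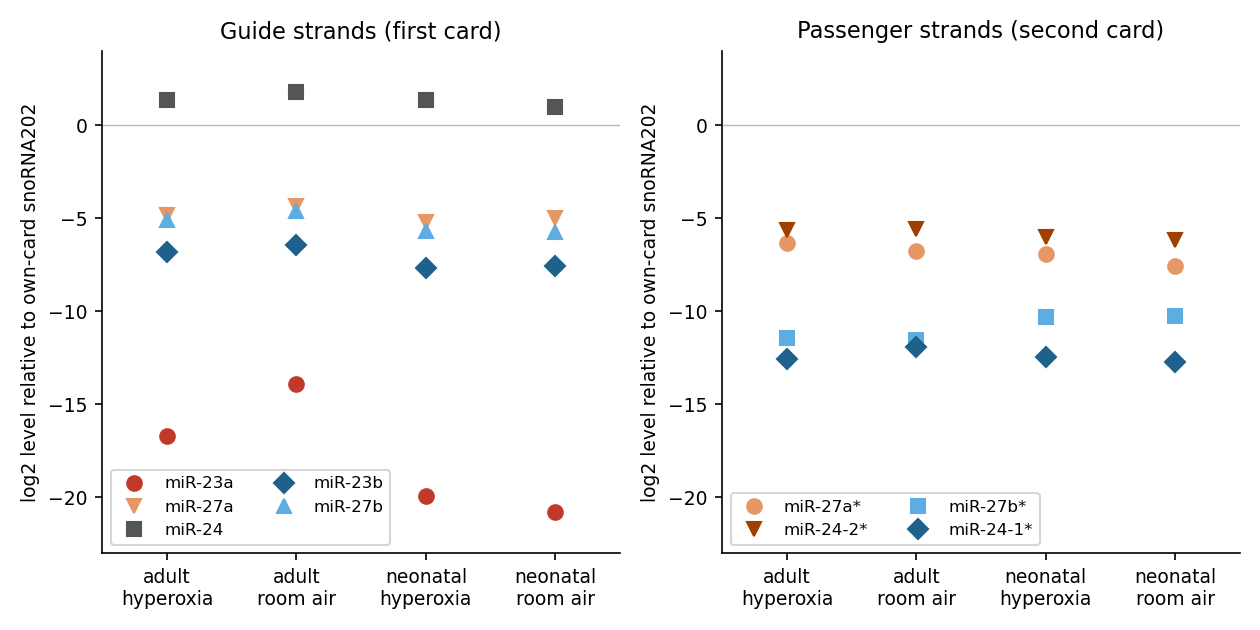
Log2 level relative to own-card snoRNA202 (vertical axis) in the 4 libraries, 1 point per library, for the guide strands on the first card (left) and the passenger strands on the second card (right). miR-23a spreads over 6.92 log2 units, while the other guides spread over 0.76 to 1.25.

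Adult lung was set against neonatal lung within each atmosphere, the comparison that follows lung development. In room air, miR-23a was 6.92 log2 units higher in the adult library (121-fold), and only 3 of 435 assays had a larger positive difference. miR-23b was 1.13 higher and miR-27b 1.12 higher, both just over 2-fold. miR-24 was 0.76 higher and miR-27a 0.63 higher. So 3 of the 5 members were at least 2-fold higher in the adult, against 16.6% of the 435 assays, and none was at least 2-fold lower, against 43% of the assays.

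In hyperoxia, miR-23a was 3.25 log2 units higher in the adult library than in the neonatal one. miR-23b was 0.90 higher, miR-27b 0.57, miR-27a 0.35 and miR-24 0.003. miR-23a alone was at least 2-fold higher, against 10.9% of 450 assays, and no member was 2-fold lower, against 49.3%. The members' median difference was 1.12 in room air and 0.57 in hyperoxia, or 0.94 and 0.46 without miR-23a, while the median of all assays was -0.57 in room air and -0.98 in hyperoxia. Relative to that median, the 4 members other than miR-23a were higher in the adult by 1.21 to 1.71 in room air and by 0.99 to 1.89 in hyperoxia. It pools both cards, while all members sit on the first. The median of the first card was -0.39 in room air and -0.95 in hyperoxia, and that of the second -0.97 and -1.04. The excess in room air is thus smaller over the first card's own median. The cards hold different assays, and whether the cards themselves differ was not tested.

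No replicate check exists for these differences, as every group has 1 library. The only repeat measurements are 4 control RNAs read on both cards, whose gap between cards gives a technical SD of a difference of 0.65 for age in room air and 0.95 for age in hyperoxia. miR-23b and miR-27b exceeded neither by more than 1.75 times, whereas miR-23a was 10.7 times the technical SD in room air and 3.42 times in hyperoxia. That SD was measured on early-crossing controls, and among assays whose later Ct lay between 32 and 35, as for miR-23a, 79.4% of 34 differed at least 2-fold with age in room air and 5 of them differed by more than miR-23a. In hyperoxia 85.3% of 34 such assays differed at least 2-fold with age, and 18 differed by more than miR-23a. The marker lists moved too: in room air the median adult minus neonate difference was 0.98 for leukocyte miRNAs, 0.96 for smooth muscle, 0.50 for epithelium, 0.28 for endothelium, 0.18 for striated muscle and -1.03 for erythroid miRNAs, and in hyperoxia it was 0.25, 0.56, -0.90, -0.13, -1.10 and -0.79 in the same order. At least 2-fold higher in the adult in room air were 2 of 4 leukocyte and 1 of 2 smooth muscle assays, and 2 of 3 erythroid, 1 of 5 epithelial and 1 of 4 striated muscle assays were 2-fold lower, against 16.6% of all assays higher and 43% lower. In hyperoxia 2 of 5 epithelial and 3 of 4 striated muscle assays were 2-fold lower in the adult, against 49.3% of all assays, and none of the 20 was 2-fold higher, against 10.9%. The summed level of the smooth muscle markers (log2) was -0.61 in adult hyperoxia, -0.48 in adult room air, -1.41 in neonatal hyperoxia and -1.70 in neonatal room air. That of the leukocyte markers was -0.25, 0.11, -0.19 and -0.56 in the same libraries, and the summed erythroid level was -5.38, -5.14, -5.11 and -4.48. The endothelial sum was 3.13, 3.15, 3.66 and 3.21. It was -1.03, -0.19, 0.22 and -0.66 for epithelium and -4.78, -4.21, -3.75 and -4.98 for striated muscle. The endothelial markers went opposite ways with age: miR-126-3p differed by -0.18 in room air and -0.66 in hyperoxia, and miR-126-5p by 0.75 and 0.39. The part of these cell types in the members' differences was not tested, and in whole lung fewer cells of a type and less RNA per cell cannot be told apart.

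Age and oxygen were fitted together, as additive terms, across the 426 assays measured in all 4 libraries (limma, Benjamini-Hochberg adjusted p with a threshold of 0.05). For age it called 5.63% of the assays higher and 30% lower in adults. Of the members it called 1, miR-23a, which rose by 5.08 ± 1.07 log2 units in adult lung (SE, adjusted p = 0.0458, limma). The model takes the age differences of miR-23a in room air and in hyperoxia, 6.92 and 3.25, as equal. Its SE rests on 1 residual and 2.16 prior degrees of freedom, the latter drawn from all 426 assays. The other members pointed the same way and did not pass. miR-23b had an age effect of 1.02 ± 0.30 (adjusted p = 0.0832, limma) and miR-27b one of 0.84 ± 0.33 (adjusted p = 0.141). miR-27a had 0.49 ± 0.31 and miR-24 had 0.38 ± 0.36 (adjusted p = 0.288 and 0.455). The miR-23a call is narrow: the adjusted p ran between 0.00985 and 0.0732 over 9 settings that fitted it, and the call was lost with the deposited delta Ct and with no filter on late assays.

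The choice of reference moved every member's age effect together, as it had to: all 5 share a card and thus 1 shift per library. Over all 426 assays the median age effect was -0.84 with own-card snoRNA202, -0.41 with the mean of snoRNA135 and snoRNA202, 0.30 with mean centring, 0.38 with card median centring and 1.19 with U6. All 5 members lay above that median in each of these. U6 on the members' card, relative to snoRNA202, itself differed by -2.65 between the adult and the neonatal room air library. With U6 as reference, all 5 members were called higher in adults, with effects between 3.19 and 7.89. So were 196 of all 426 assays, while 71 were called lower.

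**Figure D2:**
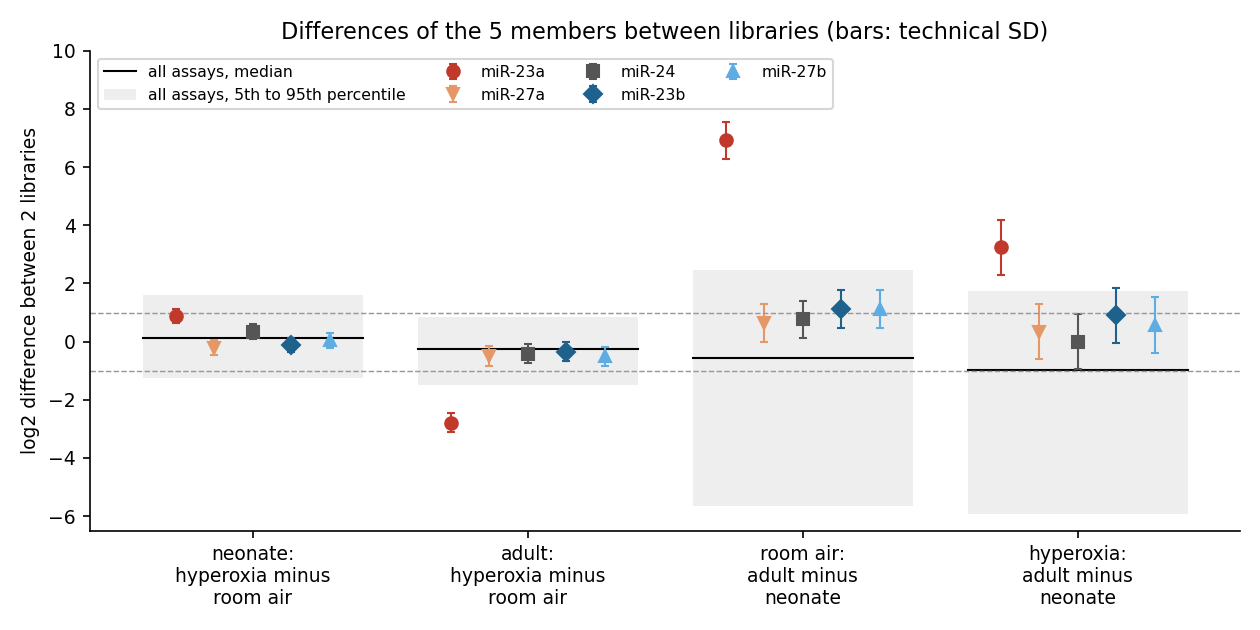
Log2 differences between 2 libraries (vertical axis) for the 5 members in the 4 comparisons, with the technical SD as error bars, the 5th to 95th percentile of all measured assays as grey boxes, their median as black lines and 2-fold as dashed lines. miR-23a lies outside the box in 3 comparisons and the other members lie inside it in all 4.

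**Figure D3:**
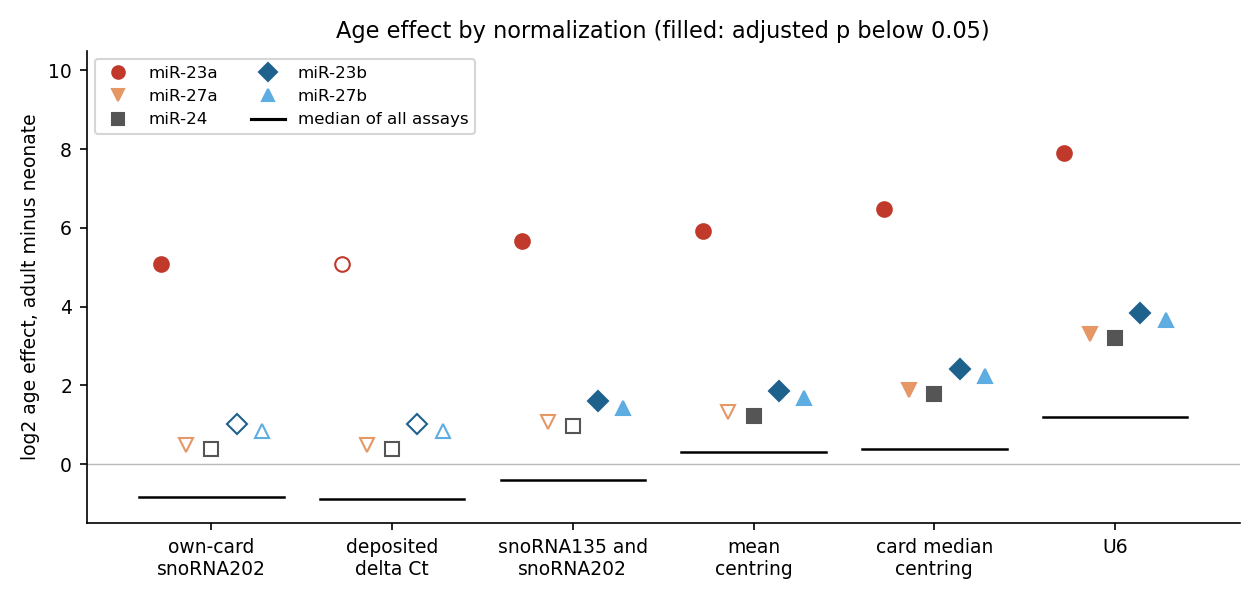
Log2 age effect, adult minus neonate, from the additive model (vertical axis) under 6 normalizations, with filled points for members called at an adjusted p below 0.05 and black lines for the median of all assays. The 5 members lie above the median throughout. Their order was fixed in advance, because each reference shifts all 5 alike in a library. The number called runs from 0 to 5, and that of all 426 assays called higher runs from 19 to 196.

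The response to oxygen was read within each age. In the neonate, miR-23a was 0.88 log2 units higher in hyperoxia and miR-24 was 0.35 higher. miR-27b differed by 0.05, miR-23b by -0.12 and miR-27a by -0.21. None of the 5 reached 2-fold in either direction, against 13.6% of 469 assays past 2-fold upward and 8.53% downward. The technical SD was 0.26 here, so miR-23a was 3.44 times it and the other 4 members were 0.18 to 1.36 times it. That SD comes from early-crossing controls, while the miR-23a wells crossed at Ct 33.5 in neonatal hyperoxia and 34.9 in neonatal room air. Of 35 assays whose later Ct lay between 32 and 35 here, 65.7% differed at least 2-fold. Among them 24 differed by more than miR-23a.

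In the adult all 5 members were lower in hyperoxia. miR-27b, miR-27a, miR-24 and miR-23b lay close together, at -0.50, -0.50, -0.41 and -0.35, which is 1.05 to 1.52 technical SDs of 0.33. miR-23a was at -2.79, which is 8.42 technical SDs and below 439 of 448 assays, and was the 1 member at least 2-fold lower, against 8.26% of the assays. No member was 2-fold higher, against 3.79%. The median of all assays was -0.24. In the additive model the oxygen coefficient called 0% of the 426 assays (limma). Only 13 of the 426 had an unadjusted p below 0.05 (limma), fewer than that threshold passes on average with no effect. The members' oxygen effects lay between -0.96 and -0.03 with adjusted p-values between 0.988 and 0.993. That coefficient averages both ages, in which miR-23a, miR-24 and miR-27b went opposite ways, so it does not test the adult difference of miR-23a.

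Whether the a and b clusters differ was asked of the gap between paralogs, which stays the same under every reference because both assays sit on the first card. The gap miR-27a minus miR-27b was 0.27 in adult hyperoxia, 0.26 in adult room air, 0.49 in neonatal hyperoxia and 0.74 in neonatal room air. Its changes were -0.48 for age in room air and -0.22 in hyperoxia, and -0.25 and 0.01 for oxygen in the neonate and the adult. Each was under 1 technical SD, but that SD does not measure the noise of a gap within 1 card. It was taken between cards and holds errors of the reference RNA, which cancel in such a gap. For age in hyperoxia, U6 differed by -2.98 on the members' card and by -0.66 on the other. Whether these changes exceed the noise of the gap was thus not tested. The gap miR-23a minus miR-23b was -9.89 in adult hyperoxia, -7.45 in adult room air, -12.24 in neonatal hyperoxia and -13.23 in neonatal room air. It changed by 5.78 for age in room air, 8.92 technical SDs, and by -2.44 for oxygen in the adult, 7.37 technical SDs. The miR-27 assays thus moved nearly together while the miR-23 assays did not. The miR-27 guides differ at 1 base, and how far each assay also reads the other guide was not tested.

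The miR-23a well was then set against its cluster mate miR-27a, whose hairpin lies on the same precursor. The gap miR-23a minus miR-27a was -11.83 in adult hyperoxia, -9.54 in adult room air, -14.74 in neonatal hyperoxia and -15.82 in neonatal room air, a range of 6.28. The matching gap of the b cluster, miR-23b minus miR-27b, was -1.67, -1.83, -2.01 and -1.85 in the same libraries, a range of 0.34. The a gap changed by 6.28 for age in room air, 2.90 for age in hyperoxia, -2.29 for oxygen in the adult and 1.09 for oxygen in the neonate, which is 3.06 to 9.69 technical SDs. The b gap changed by at most 0.65 technical SDs. Both gaps lie within 1 card, so the limit of that SD given above holds here too. An exact two-sided permutation test of the a gap, 2 adult against 2 neonatal libraries, gave p = 0.333, the smallest its 6 splits allow, with a mean gap of -10.69 in adults and -15.28 in neonates. That p is also what the exact permutation test gave for the b gap, with means of -1.75 in adults and -1.93 in neonates, and for miR-27a minus miR-27b, so a test of this size cannot pass 0.05 and does not tell the gaps apart. For oxygen it gave an exact p = 1 for all 3 gaps.

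The same measure was taken for other neighbours in the genome. Of 34 such pairs 28 were measured in all libraries and 3 had no assay of the name used. The other 3 pairs each held 1 well with no crossing, miR-191 in neonatal hyperoxia and miR-532-5p and miR-542-3p in adult room air. Those assays crossed between Ct 13.3 and 25.6 in their other libraries, and with the Ct of 40 entered for no crossing their gaps would range by 15.8 to 26.9, so the filter on Ct decides that they are not compared. Over the 28 measured pairs the median range of the gap was 1.01 log2 units. None of the 28 reached the 6.28 of miR-23a and miR-27a, but their wells crossed by Ct 27.5 at the latest, against 34.9 for miR-23a, so no pair with wells as late stands beside it. The nearest were miR-29a with miR-29b, at 5.001, and miR-193 with miR-365, at 4.39. Whether a strand of these 28 pairs also comes from another locus, as miR-24 does, was not looked at. At the other end, only miR-30e with miR-30c, at 0.16, ranged less than miR-23b with miR-27b, and miR-379 with miR-411 followed at 0.47. miR-27a with miR-24 and miR-27b with miR-24, pairs of early wells in the same clusters, ranged by 0.55 and 0.66.

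**Figure D4:**
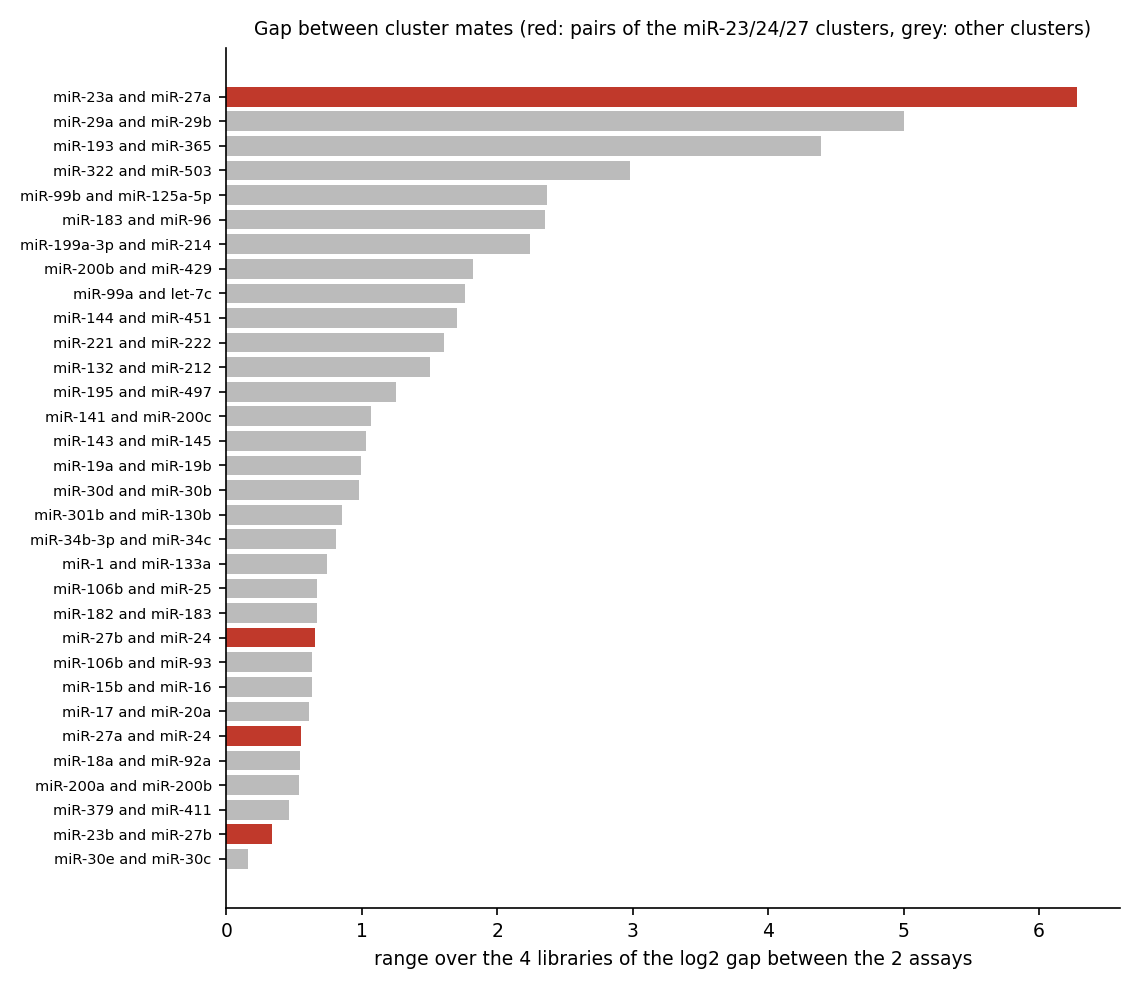
Range over the 4 libraries of the log2 gap between 2 assays encoded next to each other (horizontal axis), for 4 pairs of the miR-23/24/27 clusters in red and 28 pairs of other clusters in grey. The 3 pairs that held a well with no crossing are not plotted. The pair miR-23a and miR-27a is at the top of those plotted at 6.28, and miR-23b and miR-27b is next to the bottom at 0.34.

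The position of the well was looked at too. miR-23a sits in row P of the first card and the other 4 members in row B. From their 4-library means, the other 17 measured assays of row P had median deviations of -0.45 in adult hyperoxia, 0.04 in adult room air, 0.31 in neonatal hyperoxia and 0.05 in neonatal room air. miR-23a deviated by 1.15, 3.94, -2.10 and -2.98. The median of the measured wells of the row did not move with miR-23a. One well of the row is outside that count: miR-155, in column 8 where miR-23a is in column 10, had no crossing in neonatal room air, the library with the lowest miR-23a, and crossed between Ct 18.9 and 19.7 in the others. The part of well failure in the miR-23a values was not tested. The passenger strand of the same hairpin, read by an assay named for rat, rno-miR-23a*, crossed at Ct 35.5 in adult hyperoxia, 38.3 in adult room air, 33.4 in neonatal hyperoxia and 34.2 in neonatal room air. It was measured in the neonatal libraries alone, the libraries in which miR-23a was lowest.

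The passenger strands, on the second card, give a separate readout of each locus. miR-27a* had levels of -6.34 in adult hyperoxia, -6.75 in adult room air, -6.95 in neonatal hyperoxia and -7.57 in neonatal room air. miR-27b* had levels of -11.44 in adult hyperoxia, -11.55 in adult room air, -10.31 in neonatal hyperoxia and -10.27 in neonatal room air. Relative to snoRNA202, miR-27a* was higher in both adult libraries and miR-27b* lower in both. miR-27b* differed by -1.29 with age in room air and -1.14 in hyperoxia, at least 2-fold in each, while its guide miR-27b differed by 1.12 and 0.57. In the additive model the age effect of miR-27b* was -1.21 ± 0.30 (adjusted p = 0.0605, limma) and that of miR-27a* was 0.71 (adjusted p = 0.155), and neither passed. The direction of miR-27b* depends on the reference, with age effects of -0.32 with U6, -0.26 with card median centring and 0.22 with mean centring.

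The gap miR-27a* minus miR-27b*, which is free of the reference because both wells share a card, was 5.10 in adult hyperoxia, 4.80 in adult room air, 3.36 in neonatal hyperoxia and 2.70 in neonatal room air. Its age change was 2.10 in room air and 1.75 in hyperoxia, 3.24 and 1.84 technical SDs, opposite in sign to the -0.48 and -0.22 of the guides. The guide changes were under 1 technical SD. With oxygen the passenger gap changed by 0.66 in the neonate and 0.30 in the adult, 2.57 and 0.91 technical SDs. That SD was taken between cards and does not measure the noise of either gap. The gap between passenger and guide spans both cards and depends on the reference. For miR-27b* minus miR-27b it was -6.33 in adult hyperoxia, -6.94 in adult room air, -4.62 in neonatal hyperoxia and -4.54 in neonatal room air, and its age change in room air lay between -3.93 and -1.38 over 6 normalizations. With own-card snoRNA202, miR-27a* minus miR-27a rose with oxygen by 0.82 in the neonate and 0.91 in the adult, 3.22 and 2.74 technical SDs. The oxygen change of miR-27b* minus miR-27b was -0.09 and 0.61 at those ages, 0.34 and 1.85 technical SDs. These oxygen changes were not taken under other references.

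**Figure D5:**
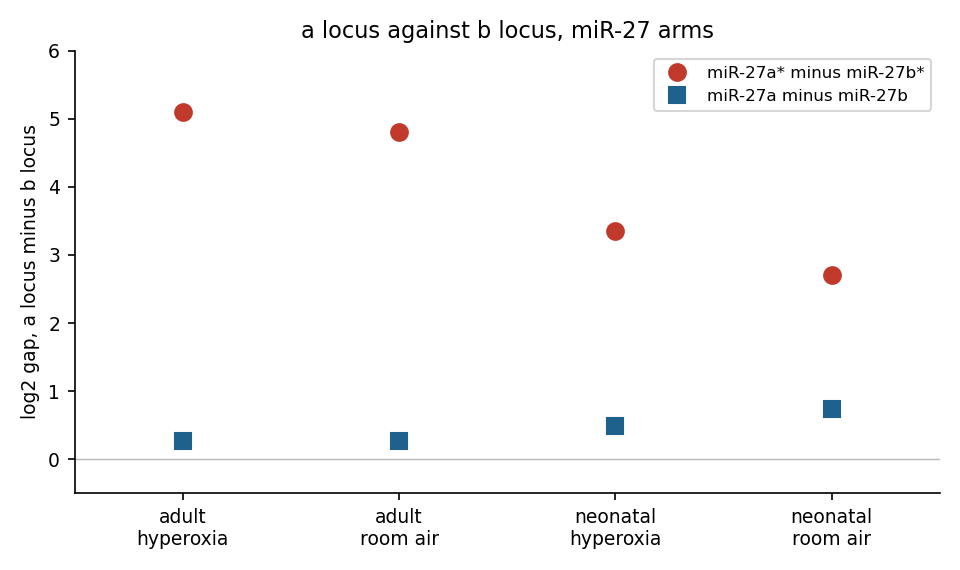
Log2 gap between the a and the b locus (vertical axis) for the miR-27 passenger strands (circles) and guide strands (squares), 1 point per library. The passenger gap is 4.80 and 5.10 in the adult libraries and 2.70 and 3.36 in the neonatal ones, and the guide gap stays between 0.26 and 0.74.

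The miR-24 passengers moved less. miR-24-2*, from the a cluster, had levels of -5.65 in adult hyperoxia, -5.60 in adult room air, -6.02 in neonatal hyperoxia and -6.18 in neonatal room air. miR-24-1*, from the b cluster, had levels of -12.57 in adult hyperoxia, -11.90 in adult room air, -12.44 in neonatal hyperoxia and -12.73 in neonatal room air. Their gap stayed between 6.29 and 6.92, and their age effects of 0.47 and 0.35 did not pass (adjusted p = 0.294 and 0.524, limma). A second assay for the b cluster strand, named for rat as rno-miR-24-1*, crossed at Ct 36.8, 34.95 and 37.6 in adult hyperoxia, adult room air and neonatal hyperoxia and had no crossing in neonatal room air, so it was not compared.

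To place the members among all assays, each member's deviations from its own 4-library mean were set against those of every assay that crossed by Ct 32 in each library, by Euclidean distance in log2 units. For miR-23b its cluster mate miR-27b ranked 5 of 390, at 0.24, and for miR-27b miR-23b ranked 6. Nearest to miR-23b were rno-miR-143, miR-10a and miR-142-3p (0.12, 0.19 and 0.20), and nearest to miR-27b were miR-467f, miR-151-5p and miR-142-3p (0.05, 0.08 and 0.08). miR-27a was nearest to miR-879*, miR-9 and miR-2146 (0.11, 0.14 and 0.19), with miR-27b at rank 23. miR-24 was nearest to miR-150, miR-466g and miR-362-3p (0.09, 0.10 and 0.17), with miR-27a, miR-27b and miR-23b at ranks 36, 57 and 86. These patterns rest on 4 values that share their reference RNA.

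For miR-23a the nearest assays were miR-29b, miR-29c and miR-29a*, at distances of 1.71, 2.07 and 2.63. miR-23b followed at rank 37 of 391, miR-27b at 43, miR-27a at 70 and miR-24 at 78. The median distance over all candidates was 6.22 for miR-23a and 1.58 to 2.04 for the other members, and it grows with a member's own spread, which was widest for miR-23a. By rank, its mates overlapped those of miR-24.

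Other miRNAs known in endothelium or the vessel wall were read beside the clusters, as a list of 12, all measured. In room air 5 were at least 2-fold higher in the adult and 2 lower, with a median of 0.75, where 16.6% of all assays were higher and 43% lower. In hyperoxia 2 were higher and 2 lower, with a median of 0.29, where 10.9% of all assays were higher and 49.3% lower. In hyperoxia against room air 1 was 2-fold higher in the neonate and 0 were 2-fold changed in the adult, with medians of 0.22 and -0.23, where 13.6% of all assays were higher and 8.53% lower in the neonate, and 3.79% were higher and 8.26% lower in the adult. The age fit called 3 of the 12. miR-10b, a Hox cluster miRNA, rose by 1.46 ± 0.30 in adults, with levels of -9.02 in adult hyperoxia, -8.77 in adult room air, -10.57 in neonatal hyperoxia and -10.14 in neonatal room air (adjusted p = 0.0452, limma). miR-100, of the miR-99 family, rose by 1.74 ± 0.38 (adjusted p = 0.0480, limma). miR-218, encoded in introns of Slit genes, fell by 1.85 ± 0.30 (adjusted p = 0.0305, limma). The shares called over all assays, given above for age, were 5.63% higher and 30% lower.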

How the data were processed

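Total RNA of 4 lung libraries was copied into cDNA with Megaplex primers (sets A and B), amplified in advance and read on 2 cards of 384 wells, per the labels' protocols. The authors deposited Ct values and delta Ct (Ct minus that of snoRNA202), both on a log2 scale, per the file headers; how Ct was set (threshold, baseline) is not given in the sources used here. Levels were recomputed as minus Ct minus own-card snoRNA202, since the deposited delta Ct of adult room air takes the other card's snoRNA202 in 385 wells, none of a member. A Ct of 40 means no crossing. Assays with a Ct of 35 or below were compared, and called between 2 libraries at 2-fold, with no test. limma 3.58.1 (lmFit, eBayes, R 4.3.3) fitted age and oxygen to the 426 assays measured in all libraries, with 1 residual and 2.16 prior degrees of freedom, and was tested on simulated data. The fit takes the oxygen effect as equal at each age, and its SEs leave out errors of the reference RNA. Nothing says that libraries are separate animals, so the p-values cover the spread of these 4 libraries alone, and that spread may be technical. The members, lists and tests were chosen with earlier results of these data known. Named assays are the members, other miR-23, miR-24 and miR-27 assays, each member's 3 nearest patterns, the extreme cluster mate pairs and called vascular miRNAs. Mature sequences were matched by current name for 8 of the 9 mouse strands. No well gives a depth in reads; Ct stands in its place.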

Additional observations from a re-analysis of the deposited data

Results flagged for a closer look

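Each result here went opposite ways in the 2 groups compared, with 1 library per group, and the difference was not tested. For hyperoxia minus room air, miR-23a was 0.88 in the neonate and -2.79 in the adult, which differ by 3.67. miR-24 was 0.35 in the neonate and -0.41 in the adult, a difference of 0.76. miR-27b was 0.05 and -0.50 at those ages, a difference of 0.55. Of the passenger strands, miR-24-1* differed by 0.96 (0.29 in the neonate and -0.67 in the adult), miR-24-2* by 0.20 (0.16 and -0.04) and miR-27b* by -0.15 (-0.04 and 0.11). For adult minus neonate, miR-24-1* was -0.13 in hyperoxia and 0.84 in room air, a difference of -0.96. That is its oxygen contrast of the same 4 libraries with the sign turned, not a further result. The technical SDs of an oxygen difference were 0.26 in the neonate and 0.33 in the adult. miR-23a, miR-24 and miR-24-1* exceeded the SD of each age at that age, and the other 3 did not.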

How the results depend on the processing

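The number of members called for age, 1 with own-card snoRNA202, was 0 with the deposited delta Ct, a Ct limit of 32 (which leaves miR-23a without a value) or no filter, 2 with a variance trend or with age alone, 3 with snoRNA135 and snoRNA202, 4 with mean centring and 5 with card median centring or U6. Of the passengers, 0 were called, against 1 (miR-27b*) with a Ct limit of 32, a variance trend or age alone, 2 with U6 or card median centring and 3 with mean centring, where the age effect of miR-27b* turned to 0.22. Of the vascular list, 3 were called, against 1 with no filter, 5 with age alone, 6 with snoRNA135 and snoRNA202 or mean centring, 7 with a variance trend, 8 with card median centring and 11 with U6. Of all 426 assays, 24 were called higher and 128 lower with own-card snoRNA202, and 19 and 119 with the deposited delta Ct. These counts were 26 and 144 of 391 with a Ct limit of 32, and 16 and 96 of 450 with no filter. They were 38 and 161 of 426 with a variance trend, 39 and 164 with age alone, and 50 and 112 with both snoRNAs. Mean centring gave 99 and 77, card median centring 136 and 84, and U6 196 and 71. Members past 2-fold for age in room air, 3 above, numbered 5 under each of U6, both snoRNAs, mean centring and card median centring. In hyperoxia, 1 above, they numbered 4 with both snoRNAs, 5 with the other 3 and 0 at a Ct limit of 32. Shares of all assays past 2-fold are given for own-card snoRNA202 alone, so these counts have no background beside them. Oxygen effects that passed no test changed sign: miR-24 to 0.0493 with U6, 0.0623 with both snoRNAs, 0.22 with mean centring and 0.0285 with card median centring, miR-23b to 0.0175 and miR-27b to 0.0225 with mean centring, and miR-24-1* to 0.0816 with U6. With miR-24 as partner, the neonatal oxygen change was -0.55 for miR-27a and 0.53 for miR-23a, in place of -0.25 against miR-27b, and 1.00 and 1.09 against miR-23b and miR-27a. The causes were not tested. Deposited delta Ct and U6 left the 12 paralog and cluster mate changes the same. That was fixed in advance, as both wells of each gap share a card and its reference. The passenger to guide gaps under other references were chosen after seeing the data. With 1 library per group no replicate block exists; the additive fit compares the ages within each atmosphere. Leaving out a library leaves that fit no residual degree of freedom, so it was not run. Late wells have no repeat measurement, which limits every miR-23a value.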
